A study of Mus musculus with 4 samples.

Results

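The genes described here move, hold and release calcium in the sarcoplasmic reticulum of skeletal muscle, and 10 of the 32868 gene names in the per-library tables were chosen. They comprise the calcium pumps Atp2a1 and Atp2a2, the pump regulators Sln and Pln, the buffers Casq1, Casq2 and Pvalb, the release channel Ryr1, the voltage sensor Cacna1s and the junctional protein gene Jph1. Of these, 8 were chosen for their function, though with earlier results of these data known. Sln was picked for a high and Pvalb for a low value in Nf1-KO, so the levels of Sln and Pvalb are given as a description with no test. Each of the 10 is listed once, with no further copy of its row.

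The tissue was tibialis anterior, a mainly fast muscle at the shin, of C57BL/6 mice at postnatal day 21, and its RNA was sequenced. Mice of the Nf1-KO group carried floxed alleles on both copies of Nf1, which encodes neurofibromin, a protein that switches off Ras. Mice of the Het group carried a floxed allele on 1 copy, so they are not wild type, and all mice carried the label Myf5+. In crosses with floxed alleles such a label usually stands for Cre expressed from Myf5 in muscle precursors, which the labels do not state. If so, cells of the muscle outside that lineage would keep Nf1, and Nf1 was not measured by cell type. Each group had 2 libraries, and nothing in the labels says that they came from separate animals, so the p-values measure only the spread between these libraries.

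A contraction starts when the voltage sensor in the surface membrane opens the ryanodine receptor, which lets calcium out of the sarcoplasmic reticulum. Calsequestrin holds calcium inside the reticulum, parvalbumin binds it in the cytosol of fast fibres, and the SERCA pumps return it to the reticulum at the cost of ATP. Sarcolipin and phospholamban are small membrane proteins that bind SERCA and lower its uptake of calcium. Fast and slow fibres use different isoforms: Atp2a1 and Casq1 dominate in fast fibres, while Atp2a2, Casq2 and Pln are typical of slow fibres and heart.

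Levels are RPKM, reads per kilobase of gene scaled to library size, as the authors deposited them. Changes are log2 fold changes of log2(RPKM + 1) after scaling of the libraries, Nf1-KO minus Het, and a gene was called where the limma p adjusted by Benjamini-Hochberg over all 10690 tested genes was under 0.05. Nf1 itself was 1.09 and 1.01 RPKM in Het and 0.89 and 0.85 RPKM in the libraries labelled Nf1-KO, a log2 fold change of -0.18 with a limma adjusted p of 0.041. That call was lost with unscaled values, where the log2 fold change was -0.13 with an adjusted p of 0.094, and with any of the 4 libraries left out (adjusted p 0.057 to 0.18). Replicates varied little: over genes at or above 5 RPKM, the coefficient of variation had a median of 2.03% for the Het pair and 1.91% for the Nf1-KO pair. Of 8 skeletal muscle identity genes 3 rose (Myh1, Mb and Des) and 5 fell (Acta1, Ckm, Myh4, Tnnt3 and Tnni2), and the list summed to 54830 to 55091 RPKM in Het and 49287 to 49573 RPKM in Nf1-KO. Over all tested genes, 24.9% were called higher and 25.4% lower. In bulk tissue, fewer cells of a type and less RNA per cell cannot be told apart.

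Of the 10 genes, the 4 that were higher in Nf1-KO were less abundant than the 6 that were lower. Those 6 ranged from Jph1 up to Atp2a1. Of the 8 genes chosen for function, 3 rose (Casq2, Pln and Atp2a2) and 5 fell (Casq1, Ryr1, Atp2a1, Cacna1s and Jph1), so 8 of 8 were called, where 50.3% of all tested genes were called. Since earlier results of these data were known when the 8 were chosen, such comparisons with all genes are only a description. Higher calls made up 24.9% and lower calls 25.4% of all tested genes. Only Casq1 and Casq2 of the 8 moved by more than 0.5 on this log2(RPKM + 1) scale, a size that 9.93% of tested genes passed. For the low-abundance Pln this depends on the scale: its change was 0.45 here, 0.73 with 0.1 added in place of 1, and 0.75 in the authors' deposited table. The median absolute log2 fold change of these 8 was 0.27, beside 0.16 over all tested genes, and no list-wide test was made. The deposited values of the groups did not overlap in any of the 8, as in 77.3% of all tested genes. In 3 of them Nf1-KO lay wholly above Het, as in 49.8% of tested genes, and in 5 wholly below, as in 27.4%. The authors' deposited table also called 8 of the 8, where it called 31.6% of its genes. It had 3 of them higher, against 15.0% of its genes, and 5 lower, against 16.6%.

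**Figure D1:**
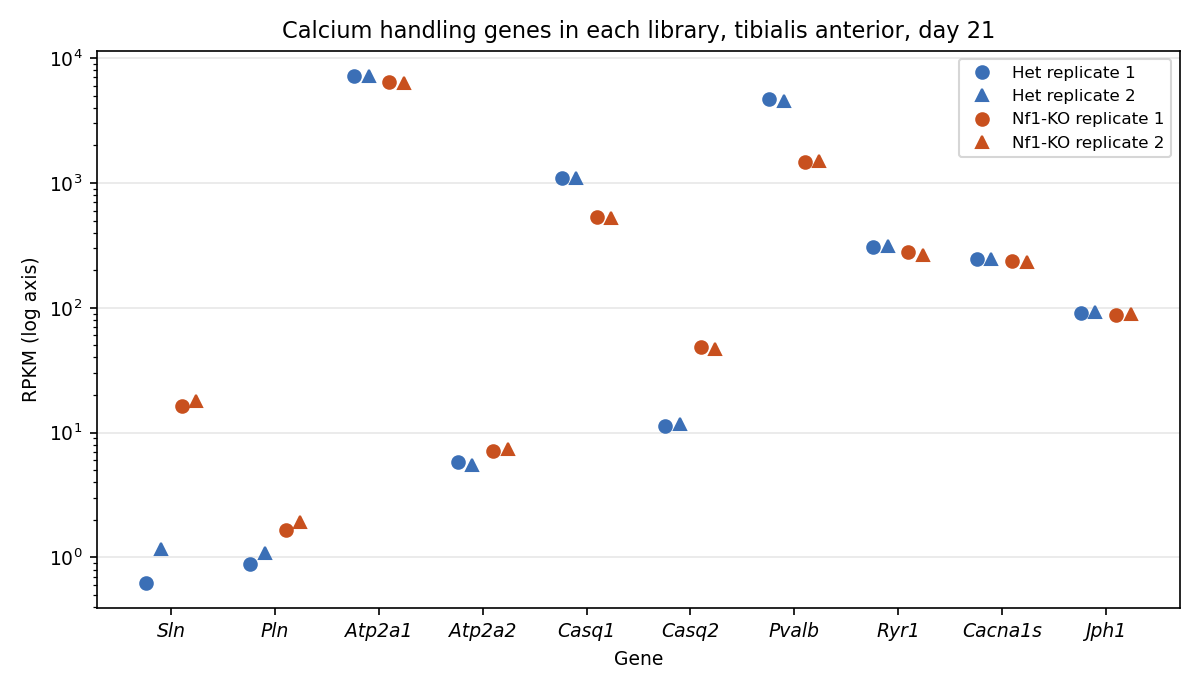
RPKM of the 10 genes (log axis) in each of the 4 libraries, with colour for the group and marker shape for the replicate. Sln lies at 0.63 and 1.16 RPKM in Het and at 16.40 and 17.78 RPKM in Nf1-KO, while Atp2a1 lies between 6284.63 and 7183.69 RPKM in all 4 libraries.

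The sequences at the start of the calsequestrin genes and of Pvalb are shown because these are the buffers whose levels differed most. RefSeq (GRCm38.p6) holds windows of 300 bases, from 250 before to 50 after the start of transcription, for 7 of the 10 genes. Capitals mark E boxes, the CANNTG sites bound by MyoD-family and other factors, and matches to the MEF2 site, both searched on both strands.
Casq1, chr1:172219846-172220145, minus strand: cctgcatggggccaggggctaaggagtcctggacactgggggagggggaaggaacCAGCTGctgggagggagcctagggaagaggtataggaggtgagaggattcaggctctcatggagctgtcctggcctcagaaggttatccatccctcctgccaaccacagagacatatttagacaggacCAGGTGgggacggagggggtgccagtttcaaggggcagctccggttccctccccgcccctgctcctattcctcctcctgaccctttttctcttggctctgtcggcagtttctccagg
Casq2, chr3:102086165-102086464, plus strand: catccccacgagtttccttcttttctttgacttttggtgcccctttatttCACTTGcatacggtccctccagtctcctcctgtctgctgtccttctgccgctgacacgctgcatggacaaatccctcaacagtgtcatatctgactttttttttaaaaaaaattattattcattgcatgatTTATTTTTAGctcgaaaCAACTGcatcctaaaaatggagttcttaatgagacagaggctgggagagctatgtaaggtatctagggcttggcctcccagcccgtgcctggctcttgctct
Pvalb, chr15:78206351-78206650, minus strand: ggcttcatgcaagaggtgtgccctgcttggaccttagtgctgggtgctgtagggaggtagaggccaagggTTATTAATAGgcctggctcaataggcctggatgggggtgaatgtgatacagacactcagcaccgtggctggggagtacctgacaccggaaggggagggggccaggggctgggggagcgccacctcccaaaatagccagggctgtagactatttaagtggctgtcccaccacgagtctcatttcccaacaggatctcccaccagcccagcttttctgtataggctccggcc
The Casq1 window holds E boxes at -195 and -67 from the RefSeq start and no MEF2 match, and GENCODE M21 places the nearest start of Casq1 27 bases downstream. For Casq2 and Pvalb the starts of both annotations coincide. The Casq2 window holds E boxes at -200 and -52 and a MEF2 match at -69, which do not overlap. For Pvalb 2 starts are listed, and the window of the upstream one, shown here, holds a MEF2 match at -180 and no E box, while that of the other holds 2 E boxes and no MEF2 match. At least 1 E box is found in 72.3% and a MEF2 match in 3.19% of 32851 windows of this length, and these matches are letters, not shown sites.

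Sarcolipin, a regulator of SERCA, was chosen for its high value in Nf1-KO. Sln was listed at 0.63 and 1.16 RPKM in the Het libraries and at 16.40 and 17.78 RPKM in the Nf1-KO libraries. The lowest Nf1-KO library was 14.1 times the highest Het library, and the ratio of the group means was 19.1. Its log2 fold change of 3.20 ranked 3 among the rises of all tested genes, and it was 4.08 in the authors' deposited table. The size depends on the pseudocount, since it was 4.07 here with 0.1 in place of 1. Dividing the mean of normalized counts that the authors' deposited table lists for Sln by its mean RPKM gives about 23.9 reads per RPKM. The Het values then stand for about 15 and 28 reads and the Nf1-KO values for about 391 and 424 reads, so the Het level is known far less precisely. The coefficient of variation was 41.9% in Het and 5.71% in Nf1-KO.

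Phospholamban, the other small regulator of the pump, rose from a similarly low level. Pln was 0.88 and 1.09 RPKM in Het and 1.67 and 1.94 RPKM in Nf1-KO, a ratio of means of 1.83. The change, on the log2 scale, was 0.45 (standard error 0.079; limma adjusted p 0.0046). Exons of Pln overlap those of Cep85l on the opposite strand, which was itself 0.90 and 0.75 RPKM in Het and 2.04 and 2.15 RPKM in Nf1-KO. The strand setting of the counting is not given in the sources used here, and the part of Cep85l reads in the Pln value was not tested. Between the regulators, Sln per Pln was 0.716 and 1.06 in Het and 9.82 and 9.17 in Nf1-KO, and thus Sln lay near Pln in Het and well above it in Nf1-KO. As Sln was chosen for its high value, this ratio is only a description.

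Of the pumps, Atp2a1 fell slightly and Atp2a2 rose slightly, and neither was measured by fibre or cell type. Atp2a1 was 7183.69 and 7129.06 RPKM in Het and 6446.75 and 6284.63 RPKM in Nf1-KO, and ranked 12 among all genes by mean level. The change, on the log2 scale, was -0.26 (standard error 0.017; limma adjusted p 6.4e-05). Its exons overlap those of Rabep2, which was at most 3.10 RPKM in any library. Atp2a2 was 5.84 and 5.52 RPKM in Het and 7.17 and 7.37 RPKM in Nf1-KO, and the log2 fold change was 0.23 (standard error 0.044; limma adjusted p 0.0067). The mean of Atp2a2 was 1.59 RPKM higher in Nf1-KO, while that of Atp2a1 fell by 791 RPKM. Atp2a2 therefore made up 0.0793% ± 0.00273 (SD, n = 2) of the RPKM of both pumps in Het and 0.114% ± 0.00427 in Nf1-KO, and Atp2a1 remained nearly all of the pump transcript in every library.

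Set against its pump, sarcolipin stayed a minor transcript. Per 1000 Atp2a1, on the RPKM scale, Sln was 0.0877 and 0.163 in the Het libraries and 2.54 and 2.83 in the Nf1-KO libraries. Pln per 1000 Atp2a1 was 0.123 and 0.153 in Het and 0.259 and 0.309 in Nf1-KO. Against Atp2a2 the order turned: Sln per Atp2a2 was 0.108 and 0.210 in Het and 2.29 and 2.41 in Nf1-KO. Thus Sln lay below Atp2a2 in both Het libraries and above it in both Nf1-KO libraries. Sln was chosen for its high value in Nf1-KO, so its higher ratios there restate that choice. These ratios within a library do not depend on how libraries are scaled. With 2 libraries against 2, an exact two-sided permutation test cannot give a p below 0.333, so no test is given for them.

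**Figure D2:**
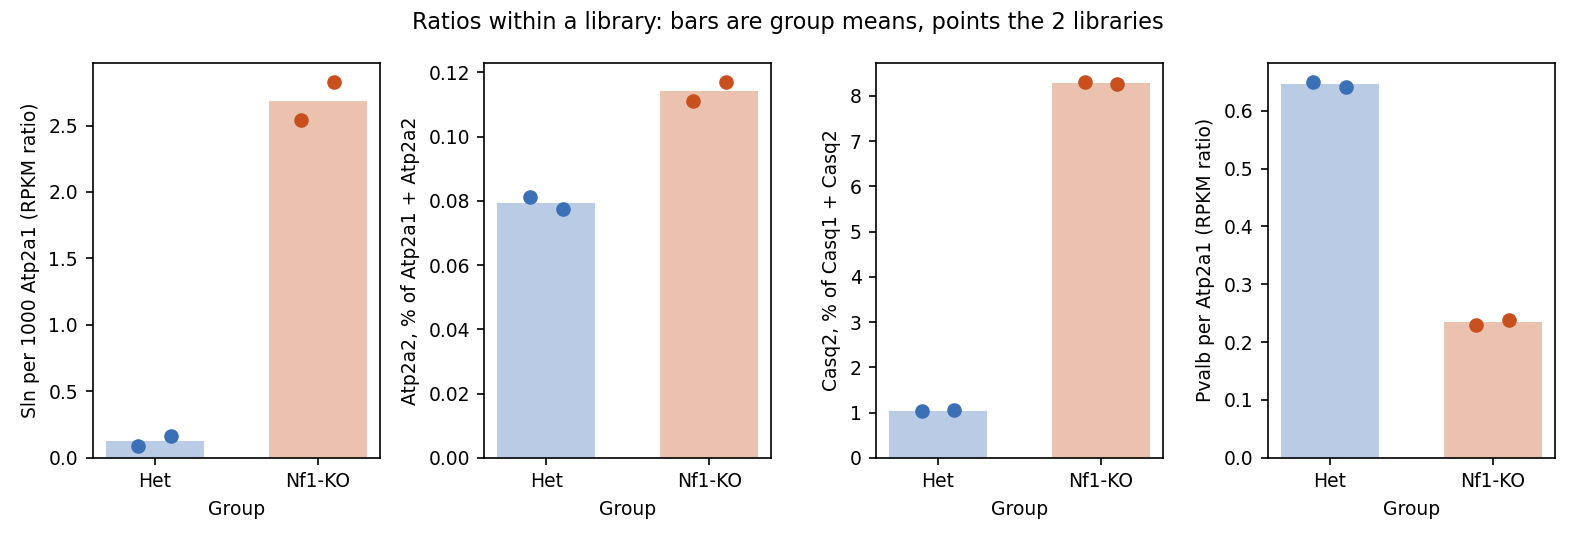
Ratios of RPKM within each library for Het and Nf1-KO, with bars for the group means and points for the 2 libraries of each group, on axes that start at 0. Sln per 1000 Atp2a1, the Atp2a2 share and the Casq2 share are higher in both Nf1-KO libraries, and Pvalb per Atp2a1 is lower in both. Sln and Pvalb were chosen for their values in Nf1-KO.

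The calsequestrins moved in opposite directions. Casq1, the fast-fibre form, was 1094.20 and 1097.88 RPKM in Het and 534.27 and 520.53 RPKM in Nf1-KO. The change, on the log2 scale, was -1.15 (standard error 0.019; limma adjusted p 4.4e-07). Casq2, the form of heart and slow fibres, was 11.38 and 11.73 RPKM in Het and 48.41 and 46.90 RPKM in Nf1-KO, a ratio of means of 4.12. The change, on the log2 scale, was 1.86 (standard error 0.032; limma adjusted p 4.7e-07). The 2 libraries of each group lay close together for both genes, with coefficients of variation of at most 2.24%.

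Casq2 made up 1.03% and 1.06% of the calsequestrin RPKM in Het and 8.31% and 8.27% in Nf1-KO. The mean of Casq2 was 36.1 RPKM higher in Nf1-KO, while that of Casq1 fell by 569 RPKM. Together they summed to 1108 ± 2.85 RPKM (SD, n = 2) in Het against 575 ± 10.8 RPKM in Nf1-KO, a ratio of 0.519. Per Ryr1, the sum was 3.61 and 3.53 in Het and 2.07 and 2.15 in Nf1-KO, and thus calsequestrin transcript was lower also in relation to the release channel.

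Parvalbumin, which binds calcium in the cytosol of fast fibres and speeds relaxation, had the lowest ratio of Nf1-KO to Het of the 10. Pvalb was 4668.54 and 4569.13 RPKM in Het and 1484.17 and 1502.19 RPKM in Nf1-KO, so both Nf1-KO libraries were listed below both Het libraries. The ratio of means was 0.323 and the log2 fold change -1.72, which ranked 22 among the falls of all tested genes, and -1.74 in the authors' deposited table. Per Atp2a1, Pvalb was 0.650 and 0.641 in Het and 0.230 and 0.239 in Nf1-KO. Since Pvalb was chosen for its low value and Atp2a1 fell only slightly, this ratio restates that choice.

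The genes of the release unit fell by small amounts. Ryr1, the calcium release channel, was 306.26 and 313.96 RPKM in Het and 282.10 and 263.39 RPKM in Nf1-KO, and the log2 fold change was -0.28 (standard error 0.035; limma adjusted p 0.001). Cacna1s, the pore subunit of the voltage sensor, was 247.55 and 245.87 RPKM in Het and 239.05 and 233.86 RPKM in Nf1-KO. Its log2 fold change was -0.16, with a limma adjusted p of 0.0011. Jph1, junctophilin 1, which ties the surface membrane to the reticulum, was 91.33 and 93.04 RPKM in Het and 87.59 and 89.89 RPKM in Nf1-KO. Its log2 fold change was -0.15, with a limma adjusted p of 0.0029.

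How libraries are scaled matters for the size of these changes. With values as deposited, the log2 fold change was -0.19 for Ryr1, -0.06 for Cacna1s and -0.05 for Jph1, and Jph1 was no longer called (limma adjusted p 0.099). Atp2a1 per Ryr1 was 23.5 and 22.7 in Het and 22.8 and 23.9 in Nf1-KO, and thus that ratio overlapped between the groups. Set against its voltage sensor, Ryr1 per Cacna1s was 1.24 and 1.28 in Het and 1.18 and 1.13 in Nf1-KO. Exons of Atp2a2, Casq1, Ryr1, Cacna1s and Jph1 overlap antisense or other transcripts of unknown coding status that the deposited tables do not name.

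**Figure D3:**
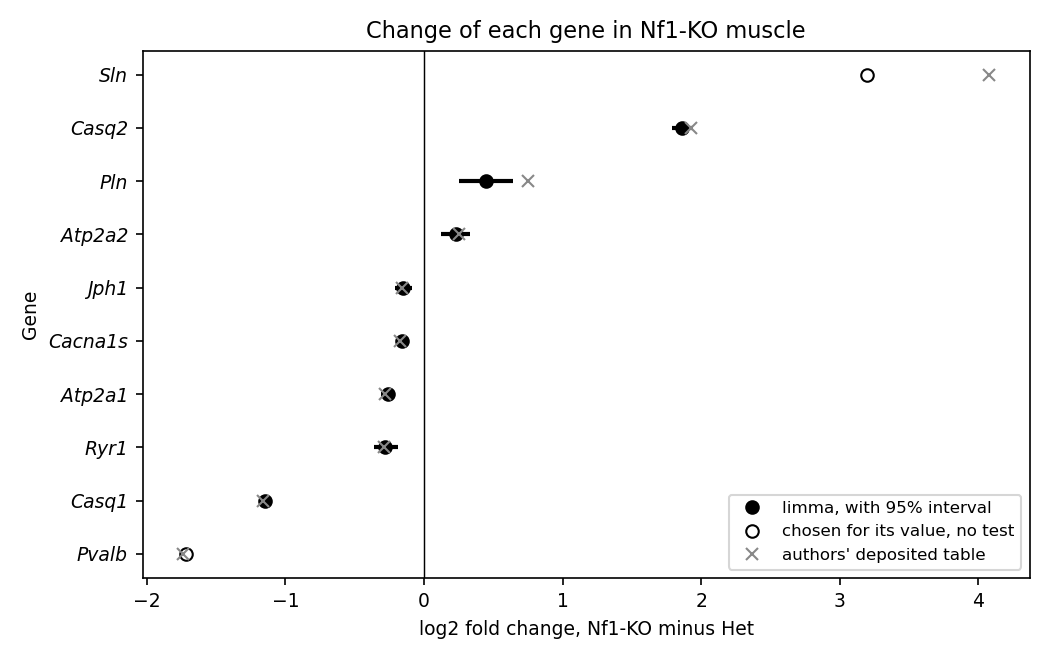
Log2 fold change (Nf1-KO minus Het) of each of the 10 genes, with filled points and 95% intervals from limma for the 8 genes chosen by function, open points for Sln and Pvalb, and crosses for the authors' deposited table. The values lie between -1.72 for Pvalb and 3.20 for Sln, and the crosses lie farthest from the points for the low-abundance genes Sln and Pln.

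The 10 genes together took 2.76% and 2.71% of the summed RPKM of the Het libraries and 1.81% and 1.77% of the Nf1-KO libraries. Most of that difference lay in Pvalb, Atp2a1 and Casq1, whose group means differed by -3126, -791 and -569 RPKM. Pvalb, the largest of these, was chosen for its low value in Nf1-KO. The lower share thus follows in large part from that choice and is only a description. The genes that were higher, Sln, Pln, Atp2a2 and Casq2, were each below 50 RPKM in every library.

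Other genes of calcium handling were read from 7 lists of 76 genes, of which 74 were found and 57 passed the filter of 0.5 RPKM in at least 2 libraries. Of these 57, 14 rose, 27 fell and 16 did not pass the test, with a median log2 fold change of -0.07 beside 0.0005 over all tested genes. The share called was 71.9%, beside 50.3% of all tested genes. The lists, too, were chosen with earlier results of these data known, so these shares are only a description. Higher calls made up 24.6%, near the 24.9% of all tested genes, and lower calls 47.4%, beside 25.4%. With values as deposited, 18 rose and 20 fell, so the share of higher calls among them was 47.4% in place of 34.1%. For all tested genes that share was 66.6% in place of 49.5%.

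Among 17 tested genes of the release channel and triad, the junction of surface membrane and reticulum, 12 fell and 3 rose, with a median log2 fold change of -0.18. The share called was 88.2%, beside 50.3% of all tested genes, where lower calls made up 25.4% and higher calls 24.9%. With values as deposited, 9 fell and 4 rose. Jph2, junctophilin 2, had a mean of 192.8 ± 4.06 RPKM (SD, n = 2) in Het and 121.8 ± 0.764 RPKM in Nf1-KO, and its log2 fold change was -0.75 (standard error 0.022; limma adjusted p 2.8e-06). Asph, the locus of junctin and aspartate hydroxylase, had a log2 fold change of -0.50. The potassium-permeable TRIC channels of the reticulum rose, with log2 fold changes of 0.53 for Tmem38b and 0.21 for Tmem38a. Ryr2 and Ryr3 were at most 0.03 RPKM in any library. Fkbp1a, which binds Ryr1 and is used by most cells, was listed at only 0.11 to 0.18 RPKM, so a listed value near 0 in these tables need not be the gene's level.

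Among the pumps and regulators outside the 10 genes, Atp2a3 and Sri rose and Hax1 did not pass the test (limma adjusted p 0.26). Atp2a3, the SERCA pump of blood and endothelial cells among others, was 2.24 and 2.43 RPKM in Het and 3.70 and 3.91 RPKM in Nf1-KO, a log2 fold change of 0.46. Sri, sorcin, a calcium-binding protein that acts on ryanodine receptors, had a log2 fold change of 0.25. Mrln, which encodes the SERCA inhibitor myoregulin, was listed at 0 in all 4 libraries. Strit1 and Erln were not matched.

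Cytosolic binding and sensing genes mostly fell, with 7 lower and 1 higher of 9 tested and a median of -0.20. The share called was 88.9%, beside 50.3% of all tested genes, where lower calls made up 25.4% and higher calls 24.9%. With values as deposited, 4 were lower and 1 higher. Camk2a, a subunit of a calcium-dependent kinase, went from a Het mean of 66.9 ± 0.0707 RPKM (SD, n = 2) down to 32.2 ± 0.269 RPKM, and its log2 fold change was -1.12 (limma adjusted p 8.5e-07). S100a1, a calcium-binding protein of the reticulum and sarcomere, had a log2 fold change of 0.11 (limma adjusted p 0.0062, and 0.054 without a variance trend).

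Genes that bring calcium in from outside or send it out were called about as often as all tested genes (50.3%), at 42.9% in store-operated entry and 60.0% in surface membrane extrusion. In store-operated entry, 2 of 7 tested genes fell and 1 rose: log2 fold changes were -0.74 for the reticulum sensor gene Stim2, -0.49 for the channel gene Orai1 and 0.23 for Saraf, which turns such entry off. In surface membrane extrusion, 2 of 5 fell and 1 rose. The sodium-calcium exchanger gene Slc8a1 was 1.62 and 1.45 RPKM in Het and 0.56 and 0.55 RPKM in Nf1-KO, a log2 fold change of -0.75. At this low level the scale understates the change: Slc8a1 had a ratio of means of 0.362 and a log2 fold change of -1.40 with a pseudocount of 0.1. Its paralogue Slc8a3 was more abundant, at 13.64 and 13.90 RPKM in Het and 17.49 and 17.43 RPKM in Nf1-KO, a log2 fold change of 0.23. The surface pump gene Atp2b3 had a log2 fold change of -0.51.

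In mitochondrial calcium uptake, 2 of 5 tested genes rose and 1 fell, a share called of 60.0% beside 50.3% of all tested genes. Log2 fold changes were 0.23 for the uniporter pore gene Mcu, 0.30 for its gatekeeper Micu2 and -0.22 for the uniporter regulator Mcur1. Of 11 genes of luminal binding and IP3 receptors, 4 rose and 3 fell, a share of 63.6%. Itpr1, an IP3-gated release channel, and Hspa5, the main chaperone of the endoplasmic reticulum, had log2 fold changes of -0.40 and -0.34, and the reticulocalbin genes Rcn1 and Rcn3 of 0.27 and 0.31. Rcn3 was no longer called with no filter on low values (limma adjusted p 0.091), without Het replicate 1 (0.084) or without Nf1-KO replicate 1 (0.059). Exons of Asph, Orai1, Slc8a1, Itpr1, Rcn3 and Tmem38b overlap other annotated transcripts.

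**Figure D4:**
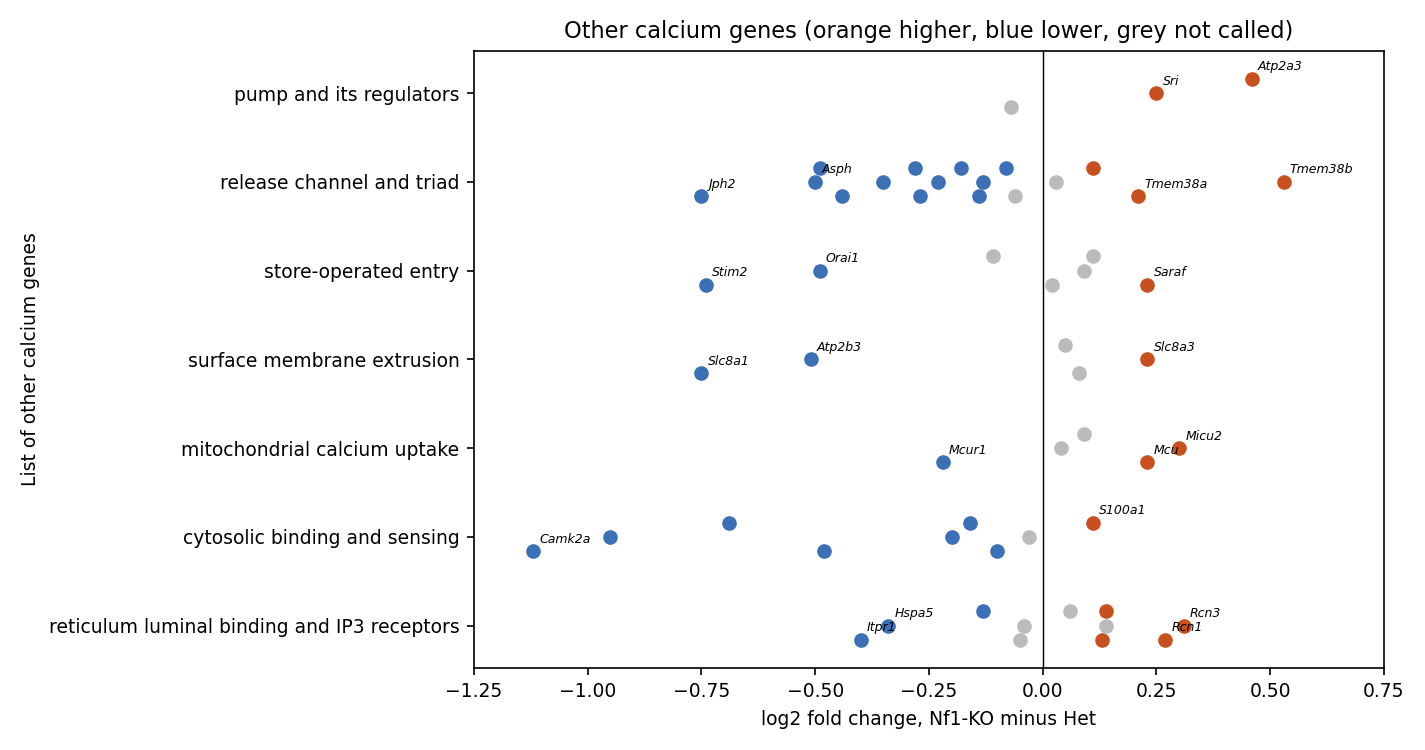
Log2 fold change (Nf1-KO minus Het) of the 57 tested genes in 7 lists of other calcium genes, 1 point a gene, coloured by call, with names for the genes described in the text. Blue points outnumber orange ones in the release channel and triad list (12 and 3) and in the cytosolic list (7 and 1). Over all tested genes, lower calls made up 25.4% and higher calls 24.9%.

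Slow fibre, immune cell and Schwann cell markers mostly rose, while smooth muscle and satellite cell markers were mixed. The part of any of these markers in the results was not tested. Over all tested genes, 24.9% were called higher and 25.4% lower. Of 7 slow fibre genes, 6 rose, and the list summed to 123.2 to 124.0 RPKM in Het and 156.9 to 159.7 RPKM in Nf1-KO. The slow myosin gene Myh7, which defines slow fibres, was 1.53 and 1.66 RPKM in Het and 1.47 and 1.36 RPKM in Nf1-KO and did not pass the test (limma adjusted p 0.066), though it was called lower with scaling that leaves out the 20 most abundant genes. Of 6 cardiac genes, Nppb, Myl7 and Tbx5 were listed at 0 and Nppa was at most 0.24 RPKM. Tnni3 was 0.07 and 0.08 RPKM in Het and lower, at 0.03 and 0.02 RPKM, in Nf1-KO. Only Myh6 could be tested, which rose from a mean of 1.00 to 2.21 RPKM. The cardiac list summed to at most 2.50 RPKM in any library. Of 5 tested smooth muscle genes 2 rose and 2 fell, and the list of 6 summed to 50.16 to 51.55 RPKM in Het and 58.87 to 59.14 RPKM in Nf1-KO.

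Beside the rise of Atp2a3, 4 of 4 tested immune cell genes rose, with a sum over the list of 24.03 to 24.09 RPKM in Het and 55.29 to 57.01 RPKM in Nf1-KO, though Adgre1 was listed at 0. For this and the next lists, the share over all tested genes was 24.9% higher and 25.4% lower. Of 6 endothelial cell genes 4 rose and 1 fell, and the sums were 85.52 to 86.27 and 96.41 to 97.94 RPKM. With scaling that leaves out the 20 most abundant genes, 1 of them rose and 1 fell. Of 6 Schwann cell genes 6 rose, from 15.08 to 15.49 RPKM to 33.39 to 34.88 RPKM. Of 5 tested satellite cell genes 1 rose and 1 fell, with sums over 6 genes of 11.20 to 11.30 and 12.22 to 12.39 RPKM, and with unscaled values 2 rose and 0 fell.

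The genes whose 4 values were most like those of Sln, by the Euclidean distance between mean-centred log2 values among 4825 other genes of at least 5 RPKM, were Spp1, Mettl21e and Ctsk, at distances of 0.438, 0.660 and 0.883. Their log2 fold changes were 3.42, 2.77 and 2.39. Those most like Pvalb were Smtnl2, Csrp3 and Cited4, at distances of 0.0678, 0.0957 and 0.125. Smtnl2, a smoothelin-like gene, was 113.91 and 111.07 RPKM in Het and 37.60 and 36.59 RPKM in Nf1-KO. Csrp3, muscle LIM protein, was 32.43 and 32.29 RPKM in Het and 9.35 and 8.98 RPKM in Nf1-KO. These are likenesses over 4 libraries in 2 groups and carry no test.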

How the data were processed

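Total RNA of 4 tibialis anterior samples (2 Het, 2 Nf1-KO) was made into TruSeq version 2 libraries, per the labels' protocols. STAR 2.4.2a, DESeq2 and mouse build mm9 are named in the submitters' processing notes. The counting program, annotation and strandedness are not given in the sources used here. For each library the authors deposited 1 RPKM value per row for 34682 rows. Their headers name no unit, which was read from the values. In the authors' deposited comparison table, per the file headers, the mean normalized count is a signal value, the change is a log2 fold change with its standard error, the test statistic is a score, and p-values and adjusted p-values follow.

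Rows named only by a number (33) were dropped, and where a name had copies (1781 rows) the one with the highest mean was kept. Rows at 0 in all libraries made up 44.7%. Since these are not counts, limma 3.58.1 in R 4.3.3 was fitted to log2(RPKM + 1) of all 4 libraries with a variance trend, for genes of at least 0.5 RPKM in at least 2 libraries. Library scale factors (0.969, 0.967, 1.03 and 1.03) came from trimmed means of log ratios without weights, cutting 30% of the ratios and 5% of the levels from both tails. The fold change of low genes is understated on this scale. The fit was tested on simulated data. Depth is known only through the authors' mean normalized counts. Alternatives changed the pseudocount, filter, scaling, trend, threshold, copies, replicate block and libraries. No pairing by replicate number was found.

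The 10 genes and the lists were chosen with earlier results of these data known. Named were all 10, of each calcium list the called genes with the 2 largest rises and 2 largest falls and at least 1 RPKM on average, and for Sln and Pvalb the 3 nearest genes. Of these, 1 gene is not reported here. Other genes named from the lists (Hax1, Mrln, Fkbp1a, Ryr2, Ryr3, the unmatched names and single markers) were chosen after their values were seen. Sequences are from RefSeq (GRCm38.p6), exon overlaps from GENCODE M21 (GRCm38), and no mm9 positions are given.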

Additional observations from a re-analysis of the deposited data

How the results depend on the processing

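Of 557 values recomputed under 14 alternative settings, 536 held: tested values kept sign and call, untested ones stayed within 1 replicate SD, and counts within 1.5 times. The other values lost a call (15) or moved further (6), and 0 changed sign. Of 111 values of the 8 genes chosen by function, 110 kept their call, the exception being Jph1 with unscaled values. With at least 1 RPKM required in every library, Sln and Pln were not tested. Nf1 kept its sign and lost its call in 9 settings. Over the alternatives, log2 fold changes reached 4.07 for Sln, and ran from 0.36 to 0.73 for Pln and from -1.75 to -1.63 for Pvalb. With 1 library left out, the lone library of its group is assumed to vary like the others.

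Libraries that share a replicate number did not deviate together (correlation -0.0179 over 10690 genes). A fit with a replicate block called 2590 genes higher and 2636 lower, against 2660 and 2712 without it. Of the 8 genes, 3 were higher and 5 lower under the block, and of the calcium lists 15 and 26.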
